A study of Mus musculus with 4 samples.

Results

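The miR-23a/27a/24-2 (a) and miR-23b/27b/24-1 (b) clusters were examined in small RNA libraries of mouse brain cortex. Their members were the mature arms miR-23a-3p, miR-23b-3p, miR-27a-3p, miR-27b-3p, miR-27b-5p, miR-24-3p, miR-24-1-5p and miR-24-2-5p, chosen by name, and all 8 were found among the 942 mature miRNAs of the deposited table. The libraries came from 4 mice of strain B6C3 aged 9 months, of which 2 were wild type (WT1 and WT2) and 2 carried the APPswe/PS1deltaE9 transgenes (APP3 and APP4, the AD mice). The transgenes encode the amyloid precursor protein with the Swedish mutation and a presenilin 1 without exon 9, and their expression is driven in neurons. WT1 with APP4 (pair 1) and WT2 with APP3 (pair 2) were siblings, and each library was made from the whole dissected cortex of a single mouse. In such tissue fewer cells of a type and less RNA per cell cannot be told apart. The miRNA reads numbered between 19048747 and 26085776 per library, and a read count is given below as RPM, the reads per 1000000 miRNA reads of its library. Neuronal and brain miRNAs were abundant in each library, with 7183 to 10834 RPM of miR-124-3p, which defines neurons, and 29300 to 36670 RPM of miR-9-5p. APP4 stood apart in 8 miRNAs of epithelial and sensory cells (miR-200a, miR-200b, miR-200c, miR-141, miR-429, miR-182, miR-183 and miR-96), which summed to 5862 RPM there and to 576 to 1024 RPM in the other mice. The genotype estimate of miR-24-3p, the range of the 8 genotype estimates and the arm ratio of miR-24 are also given without APP4, and the other values below include it where it is one of the mice compared.

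A miRNA cluster is a set of hairpins cut from one primary transcript. The Drosha and Dicer enzymes release a duplex from each hairpin, and usually 1 strand, the guide, is kept in Argonaute and pairs through its seed (bases 2 to 8) with target mRNAs, while the other, the passenger, is mostly degraded. The vertebrate genome holds a pair of paralogous miR-23/27/24 clusters, which are known for their expression in endothelial cells and in blood vessel growth. miR-27 is also known as a regulator of lipid metabolism and adipocyte differentiation, miR-23a is known for repressing glutaminase, and miR-24 for repressing cell cycle and apoptosis genes.

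The mature sequences are shown because they decide which copies the reads can tell apart. They were taken from RefSeq on GRCm38.p6, where 7 of the 8 members were matched and miR-23b-3p was not. The seed is in capitals.
miR-23a-3p: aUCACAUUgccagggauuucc
miR-27a-3p: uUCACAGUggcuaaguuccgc
miR-27b-3p: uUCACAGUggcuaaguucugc
miR-24-3p: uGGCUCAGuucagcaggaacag
miR-24-1-5p: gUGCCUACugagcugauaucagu
miR-24-2-5p: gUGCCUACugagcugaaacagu
miR-27b-5p: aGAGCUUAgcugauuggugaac
miR-27a-3p and miR-27b-3p share their seed and differ by a single substitution, C19U, counted from the 5′ end with the base of miR-27a-3p first. The authors counted reads with changed length or mismatches on the mature miRNA they resembled, so the split of reads between these copies is uncertain to that extent. The same holds for the miR-23 copies, whose sequences could not be compared here. The 5p arms of miR-24 share their first 16 bases and differ behind them. miR-24-3p is identical in both clusters, and its reads cannot be assigned to either.

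On GRCm38 the a cluster lies on the plus strand of chromosome 8, where Mir23a (84208518 to 84208592), Mir27a (84208672 to 84208758) and Mir24-2 (84208815 to 84208921) cover 404 bp. In the GENCODE vM21 annotation Mir23a and Mir27a overlap no other gene, and Mir24-2 overlaps an exon of the lincRNA Gm26532. The b cluster lies on the plus strand of chromosome 13 and covers 792 bp, with Mir23b (63300484 to 63300557), Mir27b (63300712 to 63300784) and Mir24-1 (63301208 to 63301275). It lies within the protein-coding gene 2010111I01Rik of the same strand, Mir23b in an intron and both others overlapping an exon of some transcript, and opposite to an intron of Fancc. The hairpins of miR-27 and miR-24 are shown to place the 5p and 3p arms, which are in capitals, the 5p arm first.
Mir27a: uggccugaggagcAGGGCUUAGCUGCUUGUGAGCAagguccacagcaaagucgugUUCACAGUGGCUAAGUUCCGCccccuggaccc
Mir27b: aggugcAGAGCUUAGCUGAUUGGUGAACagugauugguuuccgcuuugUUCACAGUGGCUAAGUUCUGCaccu
Mir24-2: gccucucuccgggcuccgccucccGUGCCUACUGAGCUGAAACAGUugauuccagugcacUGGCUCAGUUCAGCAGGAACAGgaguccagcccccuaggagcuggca
Mir24-1: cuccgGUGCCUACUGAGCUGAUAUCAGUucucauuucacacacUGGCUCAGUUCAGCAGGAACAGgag
In miR-27 the arm with the seed UCACAGU is the 3p arm of both hairpins, and the 5p arms, of 22 bases each, differ at 8 positions between the copies.

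**Figure D1:**
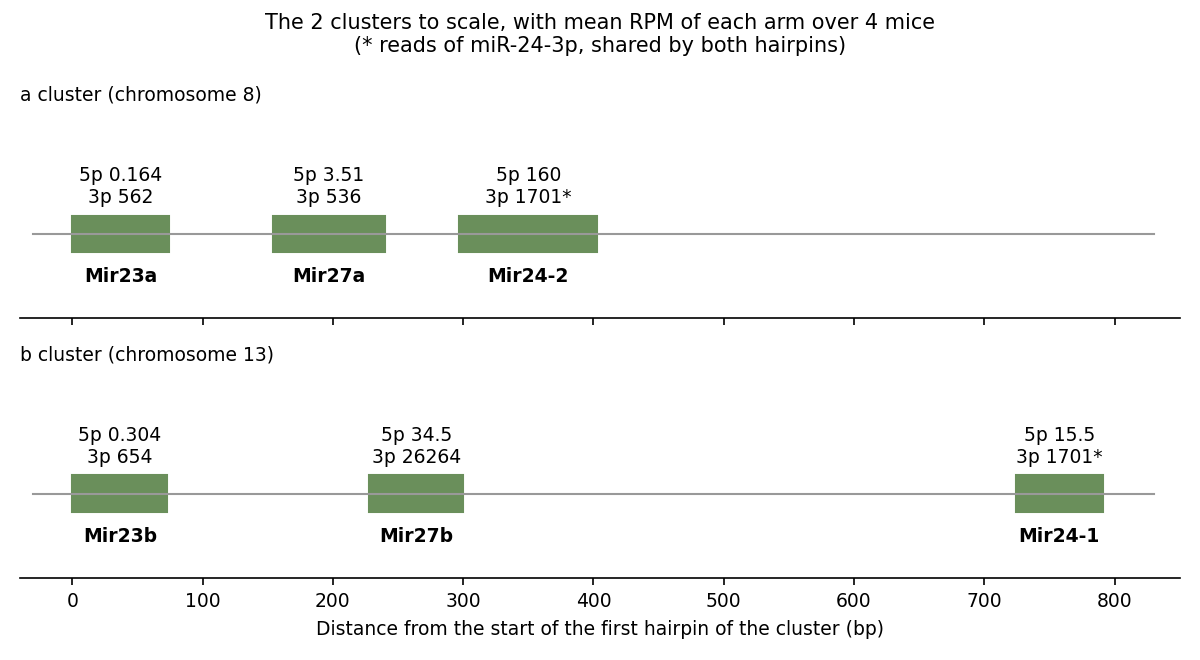
Hairpins of both clusters drawn to scale against the distance in bp from the start of the first hairpin, with the mean RPM of the 5p and 3p arm over the 4 mice written above each. Mir27b carried the highest value, 26264 RPM on its 3p arm, and the starred 1701 RPM of miR-24-3p is 1 value shared by both miR-24 hairpins.

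The 8 members together took 3.08% of the miRNA reads in WT1 and 3.02% in WT2, beside 2.95% in APP3 and 2.92% in APP4. Nearly all of these reads were miR-27b-3p, which made up between 86.5% and 88.7% of the sum in each library. Its level was 27212 RPM in WT1 and 26097 in WT2, beside 26187 in APP3 and 25560 in APP4, which placed it 9th of 942 by the mean. The WT and AD mice overlapped, and the WT mice averaged 26654 ± 788 RPM (SD, n = 2) and the AD mice 25873 ± 443 RPM (SD, n = 2). miR-27a-3p, the copy from the a cluster, had 481 RPM in WT1 and 565 in WT2, beside 534 in APP3 and 566 in APP4. It was lowest in WT1 and nearly equal in WT2 and APP4, which are of unlike genotype.

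miR-23 heads both clusters. miR-23a-3p had 584 RPM in WT1 and 576 in WT2, beside 511 in APP3 and 577 in APP4, so that APP3 stood below 3 libraries of nearly the same level. miR-23b-3p had 637 RPM in WT1 and 701 in WT2, beside 607 in APP3 and 670.1 in APP4. APP3 was again the lowest, and the genotypes overlapped for both copies.

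miR-24-3p, made by the last hairpin of both clusters, had 1662 RPM in WT1 and 2011 in WT2, beside 1496 in APP3 and 1634 in APP4. Both AD mice lay below both WT mice, but APP4 and WT1 lay close together, with a log2 fold change of -0.03 (counting SE 0.01), while the 2 WT mice were apart by 0.27. The WT mice averaged 1837 ± 247 RPM (SD, n = 2) and the AD mice 1565 ± 97.7 RPM (SD, n = 2). At a mean of 50 RPM or more, the genotypes did not overlap for 34.5% of 252 miRNAs, and for 9.52% both AD mice were the lower ones. miR-24-3p was the single such case among the 6 members at that level, and none of the 6 had both AD mice above. miR-24-2-5p had 146 RPM in WT1 and 180.4 in WT2, beside 148 in APP3 and 168 in APP4. miR-24-1-5p had 14.03 RPM in WT1 and 16.8 in WT2, beside 18.7 in APP3 and 12.3 in APP4, with both AD mice outside the range of the WT mice, 1 on each side.

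The passenger arm miR-27b-5p had 38.3 RPM in WT1 and 29.2 in WT2, beside 34.2 in APP3 and 36.3 in APP4, and the genotypes overlapped. The arms of these hairpins outside the 8 members were rarer still. miR-27a-5p had 131 reads in WT1 and 49 in WT2, beside 70 in APP3 and 67 in APP4. miR-23a-5p had 2 to 5 reads and miR-23b-5p 3 to 11 reads per library, where 3 reads are the smallest number taken here as a level and correspond to 0.115 to 0.157 RPM. Ordered by the mean, the members ran from miR-27b-3p over miR-24-3p, miR-23b-3p, miR-23a-3p, miR-27a-3p, miR-24-2-5p and miR-27b-5p to miR-24-1-5p. miR-23a-3p and miR-27a-3p, with means over the 4 mice of 562 and 536 RPM, overlapped in their ranges, while miR-23b-3p, with a mean of 654 RPM, lay above both in each mouse. No other neighbours in that order overlapped.

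**Figure D2:**
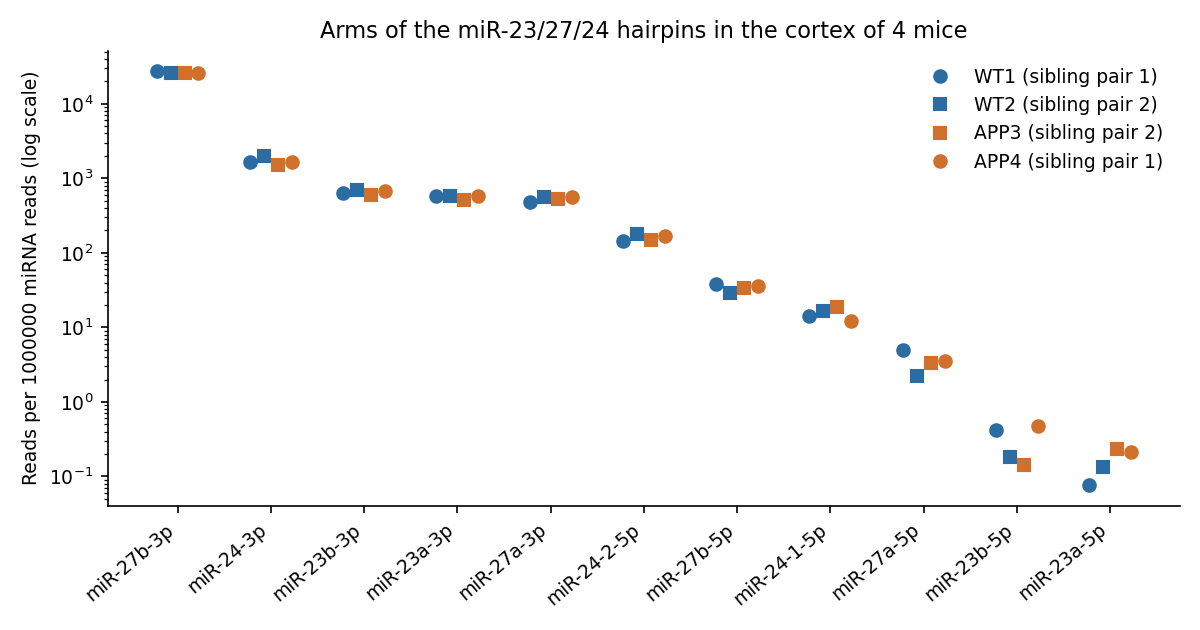
Level of each arm of the 6 hairpins in RPM on a log scale, 1 point per library, blue for WT and orange for AD mice, circles for sibling pair 1 and squares for sibling pair 2. The arms span from miR-27b-3p at 25560 to 27212 RPM down to miR-23a-5p at 2 to 5 reads, and among the 8 members miR-24-1-5p is spread the most, from 12.3 RPM in APP4 to 18.7 in APP3.

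Because both copies were counted in the same library, their ratio does not depend on how the libraries are scaled. The copies were balanced in a different way at each position of the clusters. miR-23b-3p made up 52.1% of the reads of both miR-23 copies in WT1 (95% exact binomial interval 51.6 to 52.7) and 54.9% in WT2 (54.3 to 55.5), beside 54.3% in APP3 (53.7 to 54.9) and 53.7% in APP4 (53.1 to 54.4). These intervals and those below cover counting error only, since PCR copies of 1 molecule are not independent. They also leave out any reads counted on the wrong copy. miR-27b-3p made up between 97.8% and 98.3% of the reads of both miR-27 copies, or 45.2 to 56.5 reads for each read of miR-27a-3p. At the third position the a cluster had more reads of the 5p arm, the only arm there whose reads can be assigned to a cluster. miR-24-1-5p, from the b cluster, made up 8.79% of the reads of both miR-24 5p arms in WT1 (7.95 to 9.70) and 8.52% in WT2 (7.71 to 9.39), beside 11.2% in APP3 (10.2 to 12.3) and 6.85% in APP4 (6.03 to 7.75). The AD mice lay on opposite sides of the WT mice here, and their intervals did not meet.

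Neither the share of miR-23b-3p, nor that of miR-27b-3p, nor that of miR-24-1-5p separated the genotypes. For miR-23b-3p the WT mice had a share of 53.5% ± 1.96 (SD, n = 2) and the AD mice one of 54.0% ± 0.397 (SD, n = 2), and that of miR-27b-3p was 98.1% ± 0.271 and 97.9% ± 0.118. That of miR-24-1-5p was 8.66% ± 0.194 in the WT mice and 9.02% ± 3.07 in the AD mice. The two-sided exact permutation p over the 4 mice was 1.0, 0.667 and 1.0 for these shares (1.0 each after Benjamini-Hochberg adjustment over 5 tests), where 2 mice against 2 allow no p below 0.333.

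Within a cluster the guide arms differed widely in reads. In the b cluster miR-27b-3p had 42.8 reads for each read of miR-23b-3p in WT1 and 37.2 in WT2, beside 43.1 in APP3 and 38.1 in APP4. In the a cluster the same ratio, miR-27a-3p over miR-23a-3p, was 0.824 in WT1 and 0.982 in WT2, beside 1.04 in APP3 and 0.980 in APP4. In each mouse the second hairpin of the b cluster thus far outnumbered the first, which was not so in the a cluster. Adapters do not join all small RNAs equally well, so ratios between different sequences are ratios of reads, and the part of ligation in them was not tested.

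The 3p arm was the abundant arm of each hairpin for which the arms could be told apart, with 704 to 893 reads of miR-27b-3p for each read of miR-27b-5p. For miR-24 the 5p arms were less rare. Their summed level overlapped between the genotypes, with 159.6 RPM in WT1 and 197.2 in WT2, beside 166.8 in APP3 and 180.1 in APP4. The summed reads of miR-24-1-5p and miR-24-2-5p came to 9.60% of the reads of miR-24-3p in WT1 and 9.81 in WT2, beside 11.2 in APP3 and 11.0 in APP4. Both AD mice lay above both WT mice, with a mean of 11.1% ± 0.0920 (SD, n = 2) against 9.70% ± 0.149 (SD, n = 2). This difference of 1.39 percentage points was larger than the spread within either genotype, and its two-sided exact permutation p was 0.333, the smallest that 2 mice against 2 can give (1.0 after adjustment over the 5 tests). The denominator, miR-24-3p, was itself lower in both AD mice, so the ratio is not independent of that result. Without APP4 the difference of the ratio was 1.45, and its sign could not change because the genotypes did not overlap. The ratio of miR-27b-5p to miR-27b-3p overlapped between the genotypes, at 0.126% ± 0.0205 for the WT mice and 0.136% ± 0.00819 for the AD mice (SD, n = 2 each) (exact permutation p = 0.667).

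**Figure D3:**
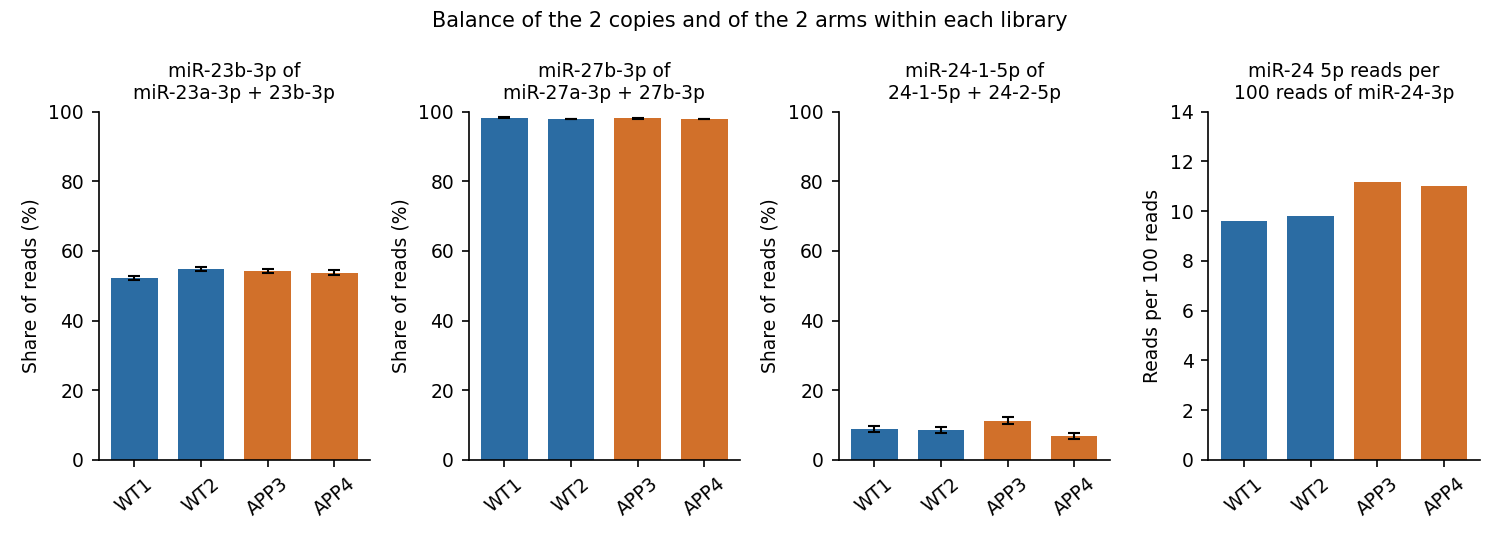
Bars give, for each library, the share in % of miR-23b-3p, miR-27b-3p and miR-24-1-5p among the reads of their 2 copies, with 95% exact binomial intervals, and the miR-24 5p reads in % of those of miR-24-3p, blue for WT and orange for AD mice. The shares stay near 54% and 98% for miR-23b-3p and miR-27b-3p, and the last panel is the one in which both AD mice (11.2 and 11.0) stand above both WT mice (9.60 and 9.81).

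To ask whether siblings differed, Fisher's exact test (two-sided) was run on the reads of every miRNA in both libraries, with the FDR of Benjamini and Hochberg. Differences of 1.5-fold or more with an FDR below 0.05 were called. This compares 2 libraries and not the genotypes, and the SE given is that of counting. Between APP4 and WT1, 0 of the 8 members were called, where 11.6% of all 899 miRNAs were. Between APP3 and WT2, 0 of the 8 were called, against 6.81% of 896. Small differences passed the FDR without the limit on the fold, for 5 of the 8 members in pair 1 (40.3% of all miRNAs) and for 6 in pair 2 (36.0%). Many of all these miRNAs had few reads. Among those of at least 10 RPM in either library, which include all 8 members, 81.2% passed in pair 1 and 76.0% in pair 2.

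In pair 1 the log2 fold changes ran from -0.18 (SE 0.12, FDR 0.246) for miR-24-1-5p to 0.23 (SE 0.02) for miR-27a-3p. miR-27b-3p was at -0.09 (SE 0.003), miR-23a-3p at -0.02 (SE 0.02, FDR 0.535) and miR-24-2-5p at 0.21 (SE 0.03). In pair 2 they ran from -0.43 (SE 0.01) for miR-24-3p to 0.23 (SE 0.08, FDR 0.0127) for miR-27b-5p. miR-27b-3p differed by a log2 fold change of 0.00 (SE 0.003, FDR 0.157), and miR-23a-3p, miR-23b-3p and miR-24-2-5p were at -0.17, -0.21 and -0.28. The median over the members, with miR-27b-5p and miR-24-1-5p below 50 RPM included, was -0.02 in pair 1 and -0.13 in pair 2. The 252 miRNAs of at least 50 RPM had medians of 0.14 and 0.04. With library sizes corrected by TMM, which assumes that most miRNAs do not change, these 4 medians became -0.27, -0.14, -0.11 and 0.02 in the same order. The members' median was below that of all miRNAs in both pairs. TMM library sizes shift every log2 fold change of a pair by the same amount. The gap between the medians is therefore the same under either scaling by construction. Within a genotype the members' median lay above that of all miRNAs by a similar amount for the WT mice. It was 0.19 beside 0.03 for WT2 against WT1 (0.08 beside -0.07 with TMM). For APP4 against APP3 both were close, at 0.11 beside 0.11 (-0.02 beside -0.02 with TMM).

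The same comparison was made between mice of 1 genotype. Between WT2 and WT1, 0 of the 8 members were called, against 10.1% of 879 miRNAs, and the log2 fold changes ran from -0.39 (SE 0.07) for miR-27b-5p to 0.31 (SE 0.03) for miR-24-2-5p. Without the limit on the fold, 7 of the 8 passed the FDR, against 40.5% of all and 81.5% of the miRNAs of at least 10 RPM. Between APP4 and APP3, 1 member was called, against 8.05% of 907 miRNAs. It was miR-24-1-5p, with 397 reads in APP3 against 235 in its counterpart, a log2 fold change of -0.60 (SE 0.12, FDR 1.66e-06). It was not called with reads scaled to 1000000 per library or with a limit of 2-fold. Without the limit on the fold, 7 of the 8 passed the FDR, against 35.2% of all and 77.4% of the miRNAs of at least 10 RPM. The next medians are over all 8 members, of which miR-24-1-5p and miR-27b-5p lie below the 50 RPM that the 252 miRNAs reach. The median size of the members' log2 fold change was 0.08 in pair 1, 0.19 in pair 2, 0.25 for WT2 against WT1 and 0.13 for APP4 against APP3, beside 0.26, 0.19, 0.24 and 0.23 over the 252 miRNAs. TMM library sizes changed this order, with 0.27, 0.20, 0.16 and 0.05 for the members, so that siblings then differed by more than mice of 1 genotype, beside 0.24, 0.19, 0.25 and 0.20 over the 252 miRNAs. Whether differences between siblings exceed those within a genotype thus depended on the scaling.

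**Figure D4:**
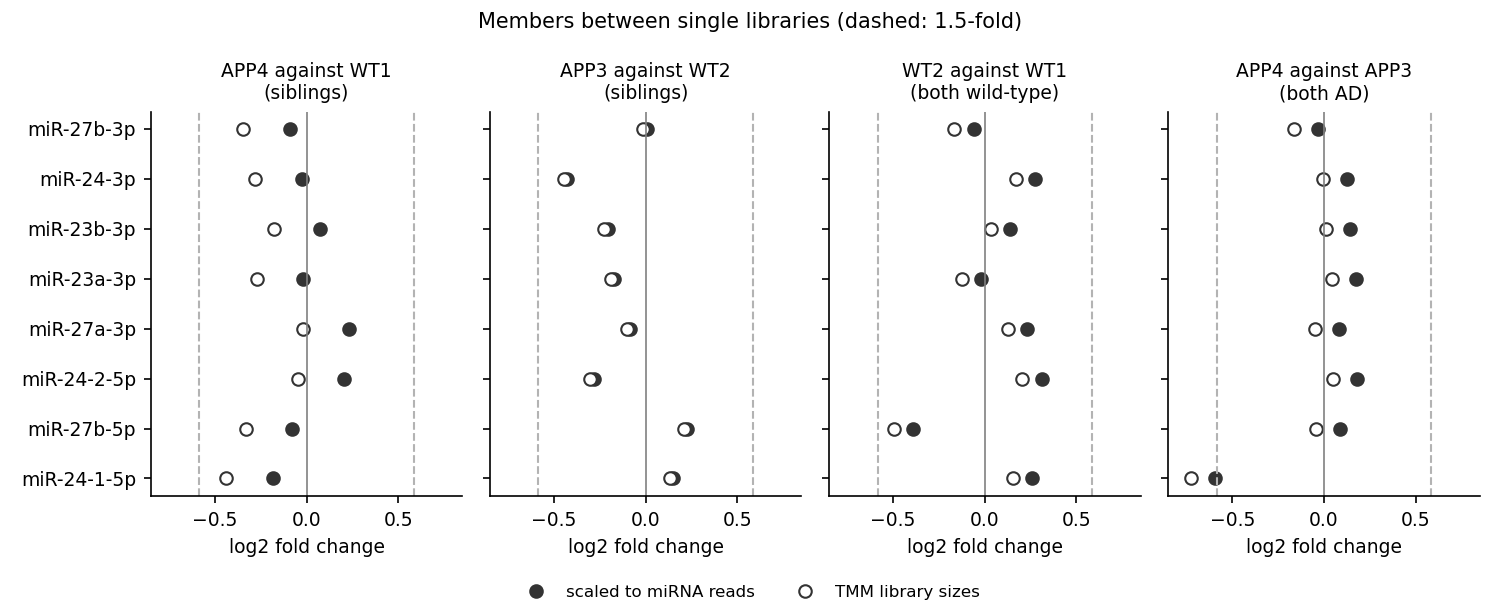
log2 fold change of each member between siblings and between mice of the same genotype, filled when scaled to miRNA reads and open with TMM library sizes, with dashed lines at 1.5-fold. No member passes a dashed line between siblings, and miR-24-1-5p does so between APP4 and APP3.

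With the mice as replicates, all 8 members passed the filter on low counts of edgeR and 0 were called in its quasi-likelihood test at an adjusted p under 0.05, as was the case for 0.0% of the 623 miRNAs tested. No member had an unadjusted p under 0.05 either, against 36 of the 623 (5.78%); the DESeq2 test called 0 members and 0 of 942 miRNAs, with 28 at an unadjusted p under 0.05. The lowest value among the members was that of miR-24-3p, with a log2 fold change of -0.36 (SE 0.17, 95% interval -0.78 to 0.05, adjusted p = 0.830 in edgeR). For miR-27b-3p the estimate was -0.18 (SE 0.19, interval -0.64 to 0.28), for miR-27a-3p -0.06 (SE 0.18, -0.49 to 0.37), for miR-23a-3p -0.23 (SE 0.18, -0.66 to 0.20) and for miR-23b-3p -0.20 (SE 0.18, -0.62 to 0.21). The intervals of the 5p arms were wider, from -0.75 to 0.53 for miR-24-1-5p, -0.65 to 0.29 for miR-24-2-5p and -0.65 to 0.48 for miR-27b-5p. In this TMM-scaled fit a decrease of 1.5-fold lay within the interval of each member but miR-27a-3p, and an increase of 1.5-fold lay outside it for all 8. Scaled to miRNA reads without TMM, a decrease of 1.5-fold lay within the interval of miR-24-3p (-0.68 to 0.22) and outside those of the other 7 members, and an increase of 1.5-fold lay within that of miR-27b-5p (-0.48 to 0.61) and outside the other 7. Without APP4 the estimate for miR-24-3p was -0.37 (SE 0.35, adjusted p = 0.996 in edgeR), and those of the 8 members ran from -0.37 to 0.20. With the a and b copies summed before the test, the estimates were -0.18 (SE 0.17) for miR-23-3p and -0.14 (SE 0.19) for miR-27-3p.

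The sign of these estimates depended on the scaling. With TMM all 8 were below 0, with a median of -0.18 beside -0.02 over the 623 miRNAs. Scaled to the miRNA reads alone, 5 were below 0 and miR-27a-3p (0.07), miR-27b-5p (0.06) and miR-24-1-5p (0.01) were above it, with a median of -0.04 beside 0.11. The members' median lay below that of all miRNAs under both scalings, and miR-24-3p had the lowest estimate of the members under both. TMM moves the estimates by nearly the same amount, so agreement between the scalings on these points is no further support. In TMM-scaled values 5 of the 6 members of at least 50 RPM had both AD mice below both WT mice, where 19.8% of the 252 miRNAs did. Scaled to clean reads, as the authors deposited them, 2 of the 6 did (miR-24-3p and miR-23a-3p), against 8.73%. Scaled to miRNA reads, 1 of the 6 did (miR-24-3p), against 9.52%. The 6 come from 2 clusters and share the library sizes, so they are not independent cases to set against these shares.

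**Figure D5:**
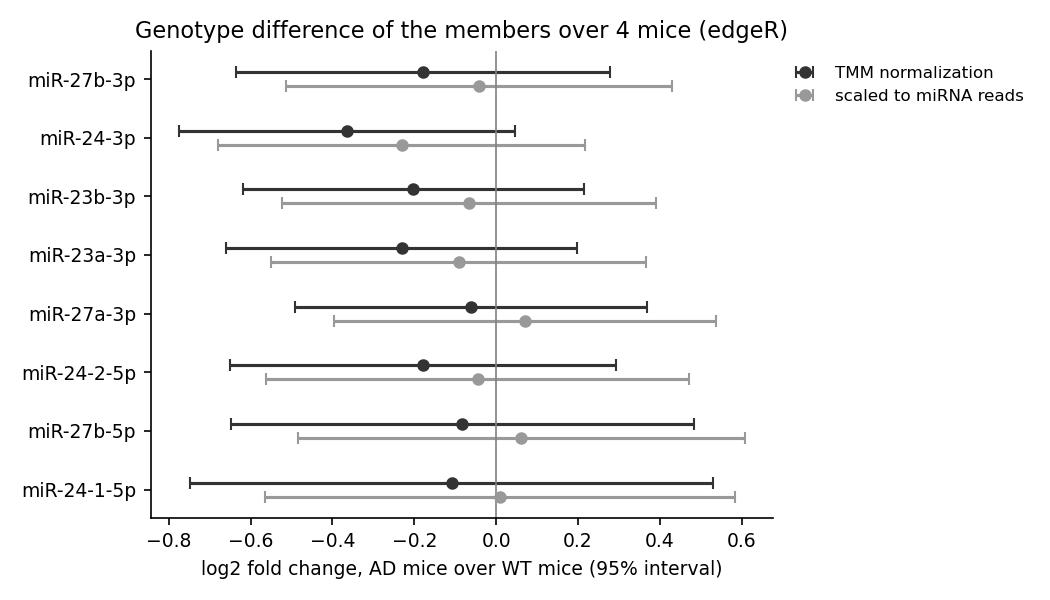
log2 fold change of each member in the AD over the WT mice with its 95% interval from edgeR, in black with TMM normalization and in grey scaled to miRNA reads. Every interval crosses 0, and TMM places each estimate lower than the scaling to miRNA reads does.

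The members differed in how much they varied between mice. Over the 4 libraries the coefficient of variation (CV) of the RPM was 2.63% for miR-27b-3p, and 1 of the 252 miRNAs of at least 50 RPM had a lower one. It was 6.05% for miR-23a-3p, 6.24% for miR-23b-3p, 7.40% for miR-27a-3p, 10.3% for miR-24-2-5p and 12.9% for miR-24-3p. The 2 members below 50 RPM had 11.4% (miR-27b-5p) and 18.3% (miR-24-1-5p). The median was 6.82% over these 6 members and 14.02% over the 252 miRNAs. This order also depended on the scaling. In TMM-scaled values miR-27b-3p had a CV of 9.73%, with 71 miRNAs below it, and the medians were 9.62% and 13.2%. Scaled to clean reads it had 3.68%, again with 1 miRNA below it, and the medians were 8.36% and 13.9%. miR-24-3p had a CV of 15.5% with TMM (153 of the 252 miRNAs below it) and of 14.9% scaled to clean reads (146 below it), above the median of all miRNAs in both.

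A search of 1679 mature miRNAs of RefSeq for the seeds of the 3p arms within the first 9 bases found few others. Of these, 754 were among the 942 miRNAs of the deposited table, and the rest of that table was not searched. The bases UCACAUU of miR-23 were found in miR-23a-3p alone among those sequences, which did not include miR-23b-3p. UCACAGU of miR-27 was also found in miR-128-3p, at its bases 1 to 7, that is, shifted by 1 base. GGCUCAG of miR-24 was found at bases 2 to 8 of 4 further miRNAs, none of them listed in the deposited table. miR-128-3p, an abundant miRNA of neurons, is shown beside miR-27b-3p with the shared bases in capitals.
miR-27b-3p: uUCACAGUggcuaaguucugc
miR-128-3p: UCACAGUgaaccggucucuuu
miR-128-3p had 28065 RPM in WT1 and 36979 in WT2, beside 30248 in APP3 and 33789 in APP4. Of the reads that carry UCACAGU, the miR-27 copies thus gave 49.7% in WT1 and 41.9% in WT2, beside 46.9% in APP3 and 43.6% in APP4, and the genotypes overlapped. It had a log2 fold change of -0.15 (SE 0.20, adjusted p = 0.958 in edgeR) between the genotypes.

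The profile of miR-24-3p over the 4 libraries was most like that of miR-129-2-3p, miR-361-5p and miR-125b-2-3p among the 251 other miRNAs of at least 50 RPM. The root mean square distance of their centred log2 RPM from it was 0.04, 0.06 and 0.07, and the 4 points of each are the same libraries and share their depth. miR-129-2-3p had 1013 RPM in WT1 and 1207 in WT2, beside 914 in APP3 and 1048 in APP4. Among the members, miR-23b-3p (0.09, the 8th of 251) and miR-24-2-5p (0.10, the 9th) came closest to miR-24-3p, and miR-27b-3p (0.16) was the 38th.

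Markers of other cells were counted beside the members. The 6 vascular arms, of miR-126 (endothelial cells) and of miR-143 and miR-145 (smooth muscle cells and pericytes), summed to 31436 RPM in WT1 and 32520 in WT2, beside 30065 in APP3 and 24449 in APP4, and none was at 0. miR-143-3p had 23902 RPM in WT1 and 24328 in WT2, beside 20760 in APP3 and 16628 in APP4, with both AD mice below both WT mice as for miR-24-3p. miR-126-3p had 797 RPM in WT1 and 849 in WT2, beside 893 in APP3 and 1058 in APP4, with both AD mice above. Of the 6 vascular arms, 0 were called between the genotypes in edgeR and 0 in either sibling pair. Between the WT mice 1 was called, miR-145a-3p, higher in WT2 than in WT1 (0.64). The 8 epithelial and sensory miRNAs named at the outset were all called higher in APP4 than in its sibling WT1, while 4 of them were called lower in APP3 than in WT2, and none was at 0 in any library. The sums were 1588 to 1805 RPM for the 6 leukocyte and microglial miRNAs, 3206 to 4626 for the 3 erythroid and 1793 to 2140 for the 3 oligodendrocyte miRNAs. Of the leukocyte and microglial miRNAs, 2 were called higher in APP4 than in WT1, miR-142-3p (log2 fold change 0.86) and miR-142-5p (0.73), and miR-142-3p was also called higher in APP3 than in WT2 (0.997). miR-142-3p had only 32 to 65 reads per library, and 0 of this list were called between the genotypes in edgeR. The neuronal and brain list had miR-138-5p called higher in the AD mouse of both pairs (0.93 and 0.69), and 0 were called in edgeR. In the paper's qRT-PCR of more mice, miR-138-5p was the exception among the miRNAs changed in both pairs. The others of the list were not called in either pair and had opposite signs in the pairs. These were miR-124-3p (0.22 and -0.34), miR-128-3p (0.27 and -0.29), miR-9-3p (0.37 and -0.07) and miR-9-5p (-0.07 and 0.03). Over all miRNAs, 11.6% were called between APP4 and WT1, 6.81% between APP3 and WT2 and 10.1% between WT2 and WT1. Of the erythroid miRNAs, 2 were called higher in APP4 than in WT1 and 2 in WT2 than in WT1. The remaining one, miR-486-5p, had most reads of the list and was at -0.35 between APP4 and WT1. The sum of the list was thus lower in APP4 (3206 RPM) than in WT1 (3993 RPM). The part of these cells in the levels of miR-23, miR-27 and miR-24 was not tested.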

How the data were processed

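Small RNA of the cortex of 4 mice was sequenced. The authors trimmed the reads, kept those of small RNA length, matched them to miRBase with Bowtie and deposited the counts per mature miRNA, without normalization; per the file headers the same values were also deposited as TPM, which are RPM of the clean reads. The paper names GRCm38 as the genome and the submitters' processing notes name mm9 and CASAVA 1.8. Coordinates here are those of GRCm38, and counting on mature sequences uses none. The members, lists and tests were chosen with earlier results of these data known. The miRNAs named were the members, the other arms of their hairpins, miRNAs sharing a 3p seed, the 3 profiles nearest to miR-24-3p, and fixed marker lists.

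Libraries of 2 mice were compared by Fisher's exact test (scipy 1.17.1; log2 fold changes with 0.5 read added), after the methods of the paper. It called 104 miRNAs in pair 1 and 61 in pair 2, more than the paper lists for either pair at its limit of 1.5-fold. The cause of that gap was not tested. Genotypes were compared by the quasi-likelihood test of edgeR 4.0.16 under R 4.3.3 (low counts removed by filterByExpr, TMM factors; SE as the fold change over the square root of F). DESeq2 1.42.0, the sibling block, other scalings, filters and limits, summed copies and each mouse left out were the alternatives. The sibling pairs are those the paper states. Deviations of siblings from their genotype means correlated with r = 0.235 across 252 miRNAs, which are not independent replicates.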

Additional observations from a re-analysis of the deposited data

Results flagged for a closer look

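For 3 of the 8 members the AD mouse was higher than its sibling in pair 1 and lower in pair 2, each past an FDR of 0.05 in both pairs by Fisher's exact test and below 1.5-fold in both. miR-27a-3p had a log2 fold change of 0.23 between APP4 and WT1 and of -0.0835 between APP3 and WT2. For miR-24-2-5p the values were 0.21 and -0.28, and for miR-23b-3p 0.0741 and -0.21. Whether the pairs differ was not tested, as each pair holds 1 mouse of each genotype. With TMM library sizes the values of pair 1 became -0.0209, -0.0481 and -0.18, so that all 3 were lower in the AD mouse of both pairs. Groups of 2 mice are too small for a search for single outlying samples.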

How the results depend on the processing

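No member was called between the genotypes under any of the alternatives, with adjusted p between 0.718 and 0.997 in edgeR or DESeq2. With the siblings as a replicate block 2 miRNAs of all those tested were called in edgeR, miR-409-5p and miR-100-5p, neither of them a member (named after their values were seen), and the block changed no other call. With each mouse left out in turn, between 0 and 21 miRNAs and 0 members were called, the 21 without APP3; a lone mouse is then assumed to vary like the others. Without WT1 the 3 were miR-455-3p, miR-342-3p and miR-342-5p, and without APP4 the 5 were miR-7a-5p, miR-7b-5p, miR-455-3p, miR-331-3p and miR-122-5p. Over these fits miR-24-1-5p ranged from -0.52 to 0.20 on the log2 scale (0.00424 without WT2), miR-27b-5p from -0.27 to 0.18, miR-27a-3p from -0.13 to 0.0385 and miR-24-3p from -0.46 to -0.24. Without TMM, miR-27a-3p turned to 0.0705, miR-27b-5p to 0.0616 and miR-24-1-5p to 0.00917.

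Between single libraries the count called fell from 104 to 33, 50 and 53 in pair 1 (reads scaled to 1000000, the 2-fold limit, at least 10 RPM), from 61 to 23, 23 and 30 in pair 2, from 89 to 21, 38 and 40 between the WT mice, and from 73 to 24, 38 and 40 between the AD mice, where the members called fell from 1 to 0 under the first 2. TMM library sizes turned the split of higher and lower calls from 87 and 17 to 39 and 46 in pair 1, from 67 and 22 to 40 and 37 between the WT mice and from 46 and 27 to 29 and 42 between the AD mice. They turned miR-23b-3p to -0.18, miR-27a-3p to -0.0209 and miR-24-2-5p to -0.0481 in pair 1, miR-27b-3p to -0.0127 in pair 2, and miR-27a-3p to -0.0469, miR-27b-5p to -0.0428 and miR-24-3p to -0.00316 between the AD mice. The other causes were not tested.

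With a mouse left out, the difference of the genotype means lay between -0.91 and 1.86 percentage points for the share of miR-23b-3p, -0.34 and 0.04 for miR-27b-3p, and -1.81 and 2.53 for miR-24-1-5p. It lay between -0.005 and 0.02 for the reads of miR-27b-5p in % of miR-27b-3p. For the miR-24 5p arms in % of miR-24-3p it lay between 1.28 and 1.49. Its sign there could not change, since both AD mice lay above both WT mice.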
